A study of Mus musculus with 18 samples.

Results

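Exhaustion and effector transcription factors are the DNA-binding proteins, and 1 partner of such proteins, that set the fate of activated T cells and innate lymphocytes. Here they were Tox, Tox2, Prdm1, Eomes, Tbx21, Nr4a2, Nr4a3, Batf, Irf4 and Id2: 10 genes of 48440 identifiers in the count table, each found once by its symbol. All 10 had enough reads to be tested in every comparison. Levels were followed in immune cells sorted from mouse livers bearing tumours, across 6 groups of 3 RNA-seq libraries each.

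All mice were wild-type C57BL/6J, bought at 7 weeks of age and kept for 1 week, and all received Ras and Myc oncogenes by hydrodynamic injection into the tail vein, which delivers plasmids to hepatocytes and yields liver tumours. Treated mice received PolyIC, a synthetic double-stranded RNA, at 4 mg/kg with 200 µg of an antibody to PD-L1, which engages PD-1 on T cells, in 6 doses on alternate days; untreated mice carried the same tumours. The dosing note also lists an antibody to VEGF-A at 5 mg/kg, which the treatment label of these libraries does not name. CD45+ liver cells of each treatment were sorted as CD3+CD8+ (cytotoxic T cells), CD3+CD8- (other T cells) or CD3-CD8- (other leukocytes). Nothing in the labels says that the 3 libraries of a group came from separate animals, so p-values measure the spread between these libraries.

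After T cell receptor triggering, calcium-activated NFAT and the AP-1 factors switch on the nuclear receptors of the NR4A family, BATF and IRF4 within hours. Under lasting stimulation TOX, an HMG-box protein, holds T cells in the exhausted state, and its relative TOX2 and the NR4A proteins act in the same circuit. The T-box proteins EOMES and T-bet (encoded by Tbx21) drive cytotoxic genes, with T-bet prominent in effector cells and EOMES in memory and late exhausted cells. BLIMP-1 (encoded by Prdm1) is a repressor of terminal effector T cells and of plasma cells, IRF4 also serves B and plasma cells, and ID2 blocks E proteins in effector T cells, NK cells and innate lymphoid cells.

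Library totals ran from 1829155 to 28233682 counts, so that 3 counts, the most that a count of 0 allows, equal 0.0721 to 5.55 CPM (counts scaled to a common library size, with TMM normalisation). In 3 libraries over 50% of counts lay on 5 loci rich in ribosomal reads: untreated CD3+CD8+ numbers 1 (87.0%) and 18 (79.7%) and treated CD3+CD8- number 2 (84.0%). Untreated CD3+CD8- number 6 went against its label, with Cd8a at 639 CPM where the other 2 libraries of its group had 4.63 and 6.80. The CD3-CD8- libraries also held T cell transcripts: Cd3e was at 51.8 to 125 CPM untreated and 173 to 311 CPM treated, and Cd8a at 60.6 to 287 and 547 to 982 CPM. Summed CD3 transcripts (Cd3d, Cd3e and Cd3g) in treated CD3-CD8- libraries, at 1951 to 2732 CPM, were as high as in treated CD3+CD8+ libraries, at 1773 to 2469 CPM. Their Cd8a also lay far above the 7.68 to 23.5 CPM of treated CD3+CD8- libraries, so every CD3-CD8- result below comes from libraries that go against their sort label. Treatment effects and list counts of the T cell fractions are given with and without the ribosomal-rich libraries and number 6.

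The promoters of 3 genes are shown because the genes passed the test in the CD3-CD8- fraction, where they were higher in treated libraries. Each line is the 250 bases before the RefSeq start of the gene (assembly GRCm38.p6), 5′ to 3′ in the direction of the gene, with a match to the AP-1 site TGANTCA in capitals.
Prdm1, chr10:44458749-44458998, minus strand: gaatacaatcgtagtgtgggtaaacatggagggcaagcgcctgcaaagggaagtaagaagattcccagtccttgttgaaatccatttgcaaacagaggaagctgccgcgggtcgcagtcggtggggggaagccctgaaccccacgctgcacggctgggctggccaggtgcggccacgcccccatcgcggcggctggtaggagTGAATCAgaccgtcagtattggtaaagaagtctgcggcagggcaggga
Eomes, chr9:118477939-118478188, plus strand: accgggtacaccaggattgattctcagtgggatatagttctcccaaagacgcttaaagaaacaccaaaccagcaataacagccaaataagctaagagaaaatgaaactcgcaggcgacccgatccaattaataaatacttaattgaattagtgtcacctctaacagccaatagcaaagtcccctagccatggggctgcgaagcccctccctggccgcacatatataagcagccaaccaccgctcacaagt
Nr4a2, chr2:57124004-57124253, minus strand: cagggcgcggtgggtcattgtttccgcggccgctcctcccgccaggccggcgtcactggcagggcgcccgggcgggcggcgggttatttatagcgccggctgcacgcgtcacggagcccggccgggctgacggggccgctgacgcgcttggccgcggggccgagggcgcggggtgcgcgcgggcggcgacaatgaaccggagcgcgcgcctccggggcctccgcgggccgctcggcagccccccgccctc

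A promoter entry was matched for 9 of the 10 genes. Beside TGANTCA, the motifs searched on both strands were the cyclic AMP response element TGACGTCA, the NR4A site AAAGGTCA, the T-box site TCACACC and the NFAT core GGAAAA, and none of these 5 contains another. Among these 3 sequences the only match was in Prdm1, where TGAATCA begins 48 bases before this RefSeq start, which lies inside the span of the gene in the authors' table; 6.75% of all 32817 promoters of this length hold TGANTCA. In the other entries Nr4a3 held 1 T-box match, where 3.33% of promoters hold it, and Batf and 2 of the 5 entries of Tox2 held an NFAT core, where 20.4% do. The sequences differed in composition: G and C made up 80.0% of the Nr4a2 window, with 44 CpG dinucleotides, 59.2% of the Prdm1 window with 15 and 46.4% of the Eomes window with 8, beside medians of 52.4% and 6 over all promoters. A match is a description of letters and not a site of binding.

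In CD3-CD8- cells, 4 of the 10 factors were higher in treated libraries: Tox, Prdm1, Eomes and Nr4a2. No factor passed the test in the lower direction. By edgeR's quasi-likelihood test with Benjamini-Hochberg adjustment, 25.6% of the 13781 genes tested passed an adjusted p of 0.05 in this fraction, 10.2% in the higher and 15.3% in the lower direction. The median log2 fold change of the 10 factors was 0.84, beside -0.06 over all genes, and 8 of 10 were above 0. In 5 of the 10 every treated library lay above every untreated one, as in 22.4% of all genes. In bulk libraries a change in the number of cells of a type and a change in RNA per cell cannot be told apart.

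Tox (mouse chromosome 4, 6686353 to 6991557, minus strand, in the coordinates of the authors' table) stood at 24.8, 74.7 and 15.6 CPM in untreated CD3-CD8- numbers 1, 5 and 18. In treated numbers 2, 11 and 19 it stood at 259, 192 and 217 CPM. Every treated library lay above every untreated one, and number 5 was the highest of the untreated. The log2 fold change was 2.52 (SE 0.53, edgeR adjusted p = 0.0166), a 5.73-fold difference.

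Prdm1 (chromosome 10, 44437177 to 44528501, minus strand) had the smallest adjusted p of the 10. Its levels were 14.8, 18.2 and 9.46 CPM in untreated numbers 1, 5 and 18 and 54.3, 41.2 and 39.8 CPM in treated numbers 2, 11 and 19. The groups did not overlap, and the untreated libraries lay closer together than for Tox. Prdm1 rose by 1.65 on the log2 scale (SE 0.25, edgeR adjusted p = 0.00915).

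Eomes (chromosome 9, 118478212 to 118486132, plus strand) was at 26.7, 52.1 and 21.2 CPM in untreated numbers 1, 5 and 18 and at 95.9, 68.9 and 99.7 CPM in treated numbers 2, 11 and 19. It rose by 1.38 (log2; SE 0.33, edgeR adjusted p = 0.0229) with no overlap of groups. Nr4a2, an early response gene of receptor triggering (chromosome 2, 57106830 to 57124003, minus strand), was at 3.95, 17.1 and 3.13 CPM untreated and 45.1, 37.2 and 30.2 CPM treated in the same order. Its log2 fold change was 2.16 (SE 0.59, edgeR adjusted p = 0.0353), and again no untreated library reached a treated one.

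Tox2 (chromosome 2, 163203125 to 163324170, plus strand), at far lower levels, was at 1.02, 4.21 and 0.642 CPM untreated and 7.92, 6.54 and 8.70 CPM treated. The groups did not overlap, but the log2 difference of 1.89 (SE 0.61) missed the threshold (edgeR adjusted p = 0.0556). It passed in 4 of 12 other settings and missed in the rest. The 4 were DESeq2 (adjusted p = 0.00174), limma voom (0.025), no filter on low counts (2.44e-06) and lane as a covariate (0.0296). Of 6 edgeR fits with 1 library left out it passed in 1, without untreated number 5 (adjusted p = 0.0332), and the highest adjusted p was 0.151.

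The other 5 factors did not pass the test in CD3-CD8- cells. Tbx21, the T-box relative of Eomes, was at 29.4 to 47.9 CPM untreated and 27.3 to 41.9 CPM treated (log2 fold change -0.17, SE 0.23). Irf4 was at 41.4 to 51.9 CPM untreated and 33.1 to 43.7 CPM treated (-0.37, SE 0.17, edgeR adjusted p = 0.136). Its groups overlapped by 1 library on each side.

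Batf, which pairs with JUN proteins and binds beside IRF4, had a log2 fold change of 0.23 (SE 0.25), Nr4a3 one of 0.22 (SE 0.21) and Id2 one of 0.29 (SE 0.37). Id2 varied most among the untreated libraries, from 153 CPM in number 18 to 446 CPM in number 1. The smallest adjusted p of these 3 genes was 0.460.

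Transcript composition moved with treatment in this fraction. By the GC share of each gene's longest transcript, the median log2 fold change went from 0.44 in the lowest of 4 equal bins of genes through 0.12 and -0.22 to -0.77 in the highest. With each library's GC trend removed, 2 of the 10 factors passed, Eomes (1.77, edgeR adjusted p = 0.0337) and Prdm1 (1.38, 0.0382), and 607 of 13781 genes. Tox then had 2.14 (0.0667), Nr4a2 1.99 (0.0947) and Tox2 2.54 (0.0531). Tbx21, with the highest GC share of the 10 at 59.3%, changed sign to 0.75 (0.0696), and Batf, at 56.6%, went to 0.91 (0.0605).

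Leaving out 1 library at a time kept all 4 log2 fold changes above 0 and Prdm1 past the threshold in 6 of 6 fits (log2 1.46 to 1.85, edgeR adjusted p 0.00792 to 0.0472). Only 1 of the 4 factors passed without untreated number 1, and likewise without treated number 2 or without treated number 19. In the fit of all 18 libraries Prdm1 alone passed (edgeR adjusted p = 0.0242), with Tox at 0.0639, Nr4a2 at 0.127 and Eomes at 0.158, and limma on log2(FPKM + 1) passed none of the 4 (0.0633 to 0.117). With library totals alone Eomes (edgeR adjusted p = 0.0552) and Nr4a2 (0.0505) lost the call. Without the deepest library of each group none of the 10 passed, and no gene of 13271 did.

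**Figure D1:**
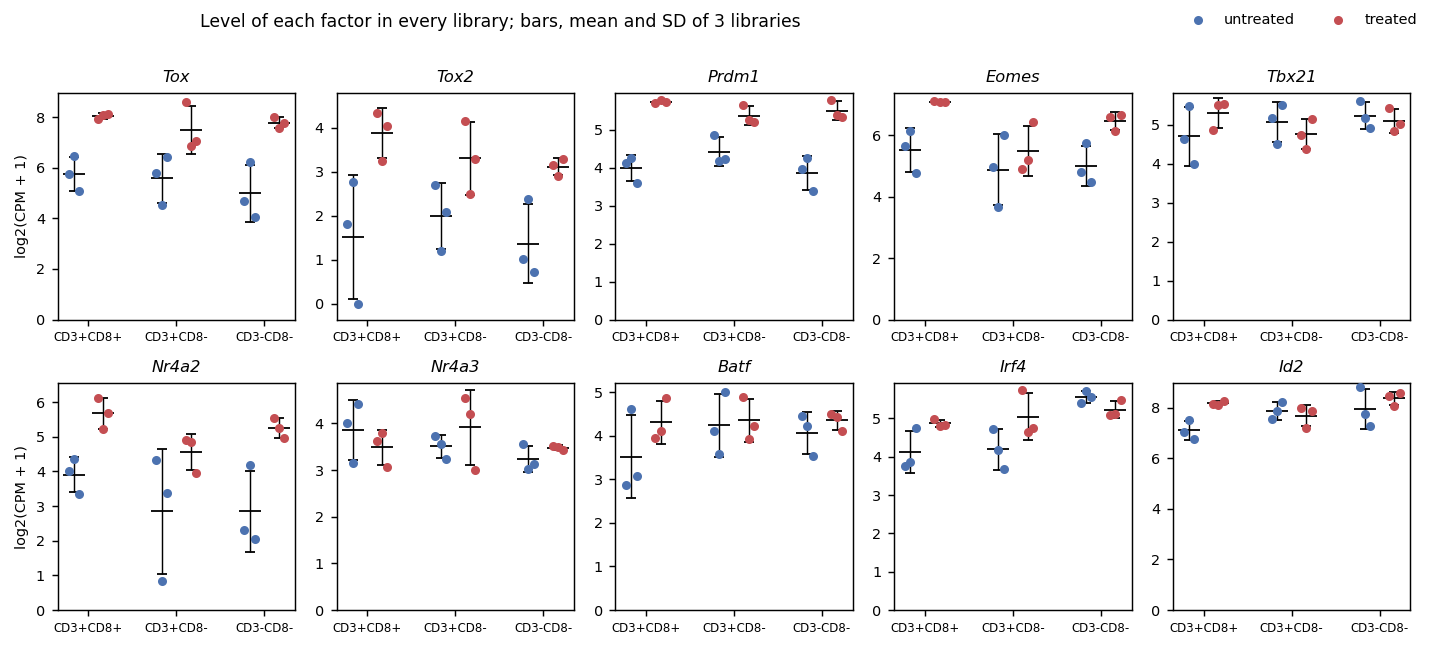
Level of each of the 10 factors in the 18 libraries as log2(CPM + 1), by sorted fraction; blue points are untreated and red points treated libraries, and bars give the mean and SD of 3. Tox, Tox2, Prdm1, Eomes and Nr4a2 are higher in all treated CD3+CD8+ and CD3-CD8- libraries, while Tbx21, Nr4a3 and Batf overlap in every fraction.

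Some T cell transcripts rose in the same CD3-CD8- libraries. The 8 T cell markers summed to 726 to 1719 CPM untreated and 2698 to 3956 CPM treated, with 4 of 8 passing in the higher direction, and both CD8 markers passed. Beside these and the next counts, 10.2% of all genes passed in the higher and 15.3% in the lower direction. Summed B cell markers were 4183 to 6443 CPM untreated and 2521 to 3556 CPM treated (6 of 8 lower). NK and ILC1 markers summed to 998 to 1551 and 495 to 1228 CPM (2 of 8 lower). Neutrophil markers had the largest median log2 fold change of the marker lists, 4.33 (3 of 8 higher), with sums of 125 to 815 CPM untreated and 553 to 19598 CPM treated, the highest in number 11. Macrophage and monocyte markers had a median of -1.22 (4 of 11 lower). With GC correction 0 of 8 T cell markers and 2 of 8 B cell markers passed, beside 195 of 13781 genes higher and 412 lower.

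Set against CD3 transcripts (summed Cd3d, Cd3e and Cd3g), the CD3-CD8- groups overlapped for the 4 factors that rose. Tox was at 3.08 to 11.4 CPM per 100 CPM of CD3 untreated and 9.48 to 10.1 treated, and Prdm1 at 1.83 to 3.32 and 1.86 to 2.11. Eomes was at 3.31 to 7.96 and 3.51 to 4.64, and Nr4a2 at 0.489 to 2.62 and 1.41 to 1.91. On this ratio the 5 factors other than these 4 and Tox2 were all lower in treated libraries without overlap. The CD3 sum in the denominator was higher in every treated library, so a gene of unchanged CPM would also fall on this ratio. The share of all genes that did so was not computed, and the count is therefore no result about these factors. Tbx21 was at 1.40 to 1.53 treated beside 5.30 to 10.3 untreated, Irf4 at 1.21 to 2.04 beside 5.13 to 16.2 and Id2 at 12.9 to 17.7 beside 32.6 to 55.3. Batf was at 0.758 to 1.06 beside 2.61 to 3.69 and Nr4a3 at 0.383 to 0.528 beside 1.08 to 2.73. The ratio carries no test, and the part of T cell content in the rise of the 4 factors was not tested.

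**Figure D2:**
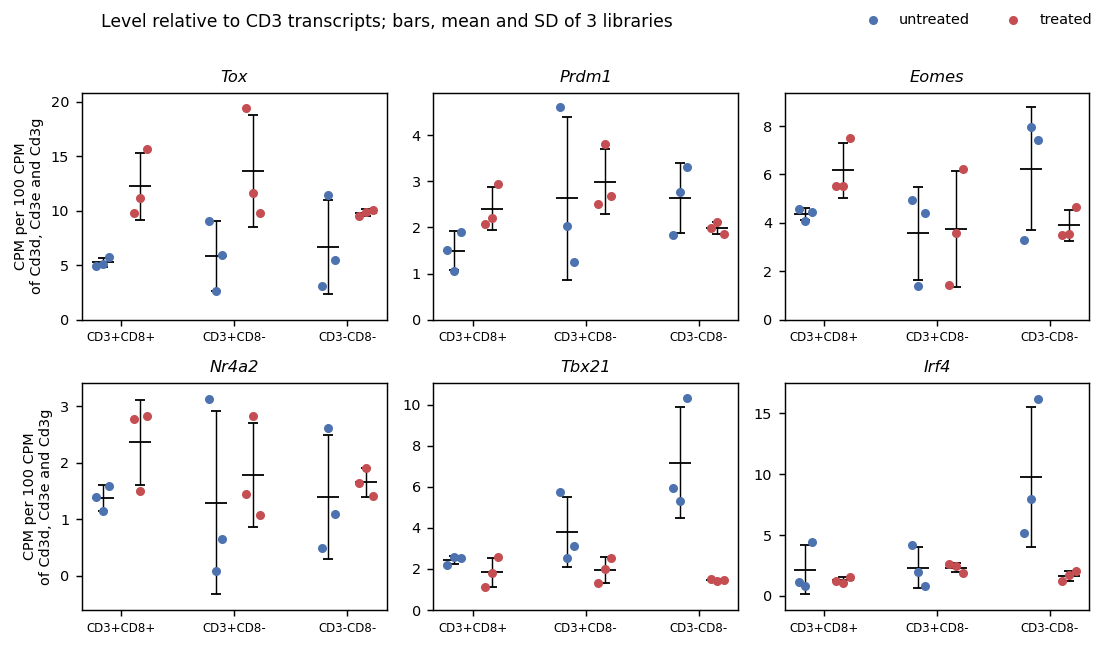
Levels of 6 factors as CPM per 100 CPM of Cd3d, Cd3e and Cd3g together, by fraction and treatment (points, libraries; bars, mean and SD of 3). In CD3+CD8+ cells Tox lies at 4.90 to 5.73 untreated and 9.80 to 15.7 treated, while in CD3-CD8- cells its treated values fall inside the untreated range.

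In sorted CD3+CD8+ cells the same 5 factors, and also Id2 and Irf4, stood higher in every treated library than in any untreated one, yet none passed the adjusted test. Non-overlap in the higher direction held for 7 of 10 factors, beside 6.56% of all 10654 genes tested. For Irf4 it was narrow, at 25.9 CPM in untreated number 18 and 26.8 CPM in treated number 2. That gap is smaller than 1 count in untreated number 18, which equals 1.85 CPM. Of these genes 0% passed by edgeR's adjusted p, and 624 genes, 6 factors among them, had an unadjusted p under 0.05. Calls depended on the tool: DESeq2 passed 4 of the 10 and 98 genes, and limma voom 4 of the 10 and 194 genes. The median log2 fold change of the 10 was 1.19, beside -0.03 over all genes.

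Tox was at 52.8, 86.9 and 33.3 CPM in untreated CD3+CD8+ numbers 1, 5 and 18 and at 242, 274 and 278 CPM in treated numbers 11, 2 and 19. All treated libraries were close together and far above the untreated ones. The log2 fold change was 2.10 (SE 0.36, edgeR adjusted p = 0.273), and Tox ranked 3 of 10654 genes by p. DESeq2 gave 2.13 with an adjusted p of 6.85e-05. The edgeR fit without untreated number 5 gave 2.56 (adjusted p = 0.00390). Its untreated libraries were then only numbers 1 and 18, both rich in ribosomal counts, where Tox rested on 42 and 18 counts.

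Prdm1 was at 16.3, 18.02 and 11.1 CPM untreated and 51.4, 53.9 and 52.2 CPM treated in the same order. The treated values differed among themselves by less than the untreated ones, but untreated numbers 1 and 18 rested on 13 and 6 counts. The treated libraries held 309 to 1417 counts, so counting error differed between the groups. Its log2 fold change of 1.68 (SE 0.30, edgeR adjusted p = 0.273) ranked 7 by p, and Prdm1 passed with DESeq2 (0.0101), with limma voom (0.0238) and in the fit of all 18 libraries (0.0422).

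Eomes was at 49.0, 69.5 and 25.9 CPM untreated and 136, 135 and 133 CPM treated, a log2 difference of 1.38 (SE 0.34, edgeR adjusted p = 0.405). Nr4a2 was at 15.1, 19.4 and 9.26 CPM untreated and 68.4, 36.6 and 50.2 CPM treated, a difference of 1.69 (SE 0.37, edgeR adjusted p = 0.308). Both passed with DESeq2 (0.0432 and 0.0303). In untreated numbers 1 and 18 Eomes rested on 39 and 14 counts and Nr4a2 on 12 and 5.

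Tox2 was at 2.51 and 5.83 CPM in untreated numbers 1 and 5, with no count in number 18, where 3 counts would be 5.55 CPM, and at 19.1, 8.46 and 15.5 CPM treated (log2 1.86, SE 0.66). Id2, the most abundant of the 10 per transcript length, was at 109 to 181 CPM untreated and 279 to 310 CPM treated (0.99, SE 0.30, edgeR adjusted p = 0.567). Irf4 was at 12.6 to 25.9 CPM untreated and 26.8 to 30.6 CPM treated (0.72, SE 0.37). The highest untreated Irf4 was in number 18, where the B cell marker Ms4a1 was also highest, at 344 CPM beside 3.02 and 35.2, and the part of B cell RNA in that value was not tested.

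Tbx21 overlapped at 14.8 to 43.5 CPM untreated and 28.0 to 45.6 CPM treated (log2 0.37, SE 0.40), Batf at 6.28 to 23.4 and 14.3 to 28.0 (0.44, SE 0.53), and Nr4a3 at 7.91 to 20.4 and 7.40 to 12.8 (-0.43, SE 0.48). The lowest untreated Batf values and the highest untreated Nr4a3 values came from the 2 libraries rich in ribosomal counts, where they rested on 4 and 5 counts and on 11 and 12 counts. Without those 2 libraries the signs turned, to -0.14 for Tbx21, -0.24 for Batf and 0.39 for Nr4a3, with 1 untreated library left, which is assumed to vary like the treated ones. Tox (1.61), Prdm1 (1.54), Eomes (0.95) and Nr4a2 (1.42) stayed above 0 in that fit, which called no gene of 12670.

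Per CD3 transcript the CD3+CD8+ groups stayed apart for Tox, at 4.90 to 5.73 CPM per 100 CPM untreated and 9.80 to 15.7 treated, for Prdm1, at 1.06 to 1.91 and 2.08 to 2.94, and for Eomes, at 4.09 to 4.55 and 5.50 to 7.50. Nr4a2 overlapped at 1.14 to 1.59 and 1.497 to 2.83. Id2 overlapped too, at 10.7 to 18.8 and 11.4 to 17.5, as did Irf4, at 0.803 to 4.46 and 1.09 to 1.55. Tox2 stayed apart narrowly, at 0 to 0.343 and 0.346 to 0.877. The share of all genes apart on this ratio was not computed. Summed T cell markers were 985 to 3516 CPM untreated and 3302 to 3904 CPM treated, and B cell markers 396 to 2834 and 145 to 207 CPM. No gene of either list passed the test in this fraction, and their part in the differences above was not tested. In untreated number 5, the library not rich in ribosomal counts, the ratios were 5.12 for Tox, 1.06 for Prdm1 and 4.09 for Eomes, below every treated library.

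**Figure D3:**
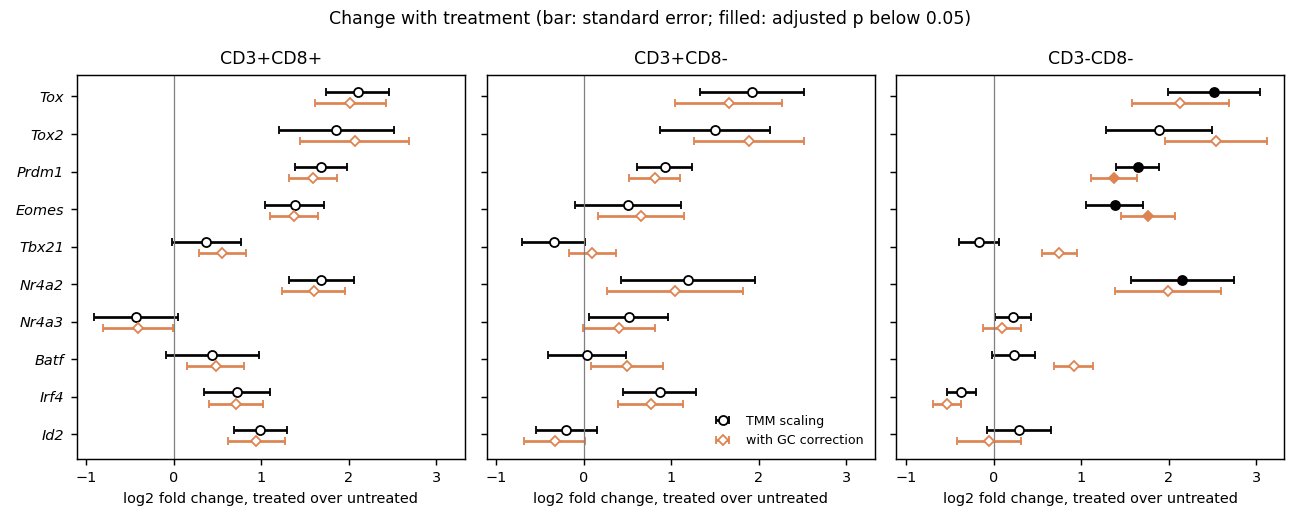
Log2 fold change of each factor, treated over untreated, in the 3 sorted fractions, with the standard error as the bar; black circles are TMM-scaled fits, orange diamonds add GC correction, and filled marks pass an adjusted p of 0.05. Tox, Tox2, Prdm1, Eomes and Nr4a2 lie right of 0 in all 3 fractions, and filled marks occur in CD3-CD8- cells alone.

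In CD3+CD8- cells, Tox and Prdm1 were the 2 factors without overlap, and no factor passed the test. Every treated library exceeded every untreated one in 2.71% of the 11197 genes tested, and 0% of genes passed by edgeR's adjusted p. At an unadjusted p under 0.05 there were 3 factors and 198 genes; DESeq2 and limma voom also passed 0 of the 10. The median log2 fold change of the 10 was 0.69, beside -0.02 over all genes. Markers of CD4 and helper T cells summed to 156 to 567 CPM untreated and 584 to 1357 CPM treated, without overlap, and neutrophil markers to 3001 to 14245 and 10364 to 30368 CPM. No gene of these lists passed, and their part in the values below was not tested.

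Tox was at 55.2, 22.2 and 85.2 CPM in untreated numbers 5, 18 and 6 and at 387, 114 and 133 CPM in treated numbers 11, 2 and 19. Number 11 stood far above the other treated libraries. The log2 fold change was 1.93 (SE 0.59, edgeR adjusted p = 0.9998), and with no filter on low counts it passed (1.96, 0.000844). Prdm1 was at 28.3, 17.3 and 17.8 CPM untreated and 49.7, 37.4 and 36.2 CPM treated (0.93, SE 0.32).

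Tox2 ranged over 1.31 to 5.49 CPM untreated and 4.62 to 16.7 treated (log2 1.504, SE 0.63), and Nr4a2 over 0.785 to 19.1 and 14.5 to 28.7 (1.19, SE 0.77). Irf4 ranged over 11.7 to 25.6 and 23.9 to 52.6 CPM (0.87, SE 0.41). Treated number 11 was the highest of its group for Tox, Tox2, Prdm1, Nr4a2, Nr4a3, Batf, Irf4 and Id2. It also had the highest sums in its group of CD4 and helper (1357 CPM), T cell (3134 CPM), neutrophil (30368 CPM) and proliferation (346 CPM) markers.

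Eomes ranged over 11.8 to 62.6 CPM untreated and 28.5 to 84.3 CPM treated (log2 0.51, SE 0.61). Its untreated maximum was in number 6, the library with high Cd8a, and its treated maximum in number 19. The remaining 4 factors had log2 differences of -0.34 (Tbx21), -0.20 (Id2), 0.04 (Batf) and 0.51 (Nr4a3), with SEs of 0.34 to 0.45. Without untreated number 6 and the ribosomal-rich library, all 10 factors lay above 0 and none passed.

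Differences in the treatment effect between fractions were tested in 1 fit of all 18 libraries. None of the 10 factors, and 0% of the 13181 genes, passed in any of the 3 tests of a difference; DESeq2 and limma voom also passed none of the 10. An unadjusted p under 0.05 occurred for Irf4 in both comparisons with CD3-CD8- cells and for Id2 in CD3+CD8+ against CD3+CD8- cells, with 478 to 515 genes at that level in each test. Irf4 responded more positively in CD3+CD8+ than in CD3-CD8- cells by 1.13 (log2; SE 0.48, edgeR adjusted p = 0.844) and in CD3+CD8- cells by 1.23 (SE 0.46, 0.977). Id2 responded more positively in CD3+CD8+ than in CD3+CD8- cells by 1.22 (SE 0.49, edgeR adjusted p = 0.9999). For Tox these differences were between -0.56 and 0.18, with SEs of 0.81 to 0.82, so a larger effect in 1 fraction was not detectable at this spread.

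Between fractions, Irf4 alone passed: it was lower in both T cell fractions than in CD3-CD8- cells of untreated mice. Untreated Irf4 was at 12.6 to 25.9 CPM in CD3+CD8+, 11.7 to 25.6 CPM in CD3+CD8- and 41.4 to 51.9 CPM in CD3-CD8- cells. Neither T cell fraction overlapped CD3-CD8- cells. The same held, in either direction, for 4068 (CD3+CD8+) and 3018 (CD3+CD8-) of 13181 genes. The log2 difference was -1.51 for CD3+CD8+ (SE 0.36, edgeR adjusted p = 0.0285), where 4.57% of 13181 genes passed and 2.31% were lower. For CD3+CD8- it was -1.34 (SE 0.33, 0.0372), where 3.16% passed and 1.46% were lower.

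In untreated mice B cell markers were also highest in CD3-CD8- cells. They summed to 396 to 2834 CPM in CD3+CD8+, 384 to 489 CPM in CD3+CD8- and 4183 to 6443 CPM in CD3-CD8- untreated cells. Their part in the Irf4 difference was not tested. The difference from CD3+CD8+ cells lost the call without the ribosomal-rich libraries (log2 -1.80, edgeR adjusted p = 0.0559) and in 4 of 6 fits with 1 library left out, without CD3+CD8+ number 1 or 5 or CD3-CD8- number 5 or 18. That from CD3+CD8- cells lost it in 5 of 6, all but the fit without CD3+CD8- number 5. In treated mice the Irf4 levels were 26.8 to 30.6, 23.9 to 52.6 and 33.1 to 43.7 CPM in CD3+CD8+, CD3+CD8- and CD3-CD8- cells. B cell markers there summed to 145 to 207, 317 to 897 and 2521 to 3556 CPM. Irf4 passed in no comparison of treated fractions. It lay lower in treated CD3+CD8+ than in treated CD3-CD8- cells without overlap, where 2540 of 13181 genes did not overlap, either way. The part of B cell RNA in these levels was not tested.

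No factor passed in untreated CD3+CD8+ against CD3+CD8- cells (1.58% of genes passed). In treated mice none passed in CD3+CD8+ against CD3+CD8- (5.96%), CD3+CD8+ against CD3-CD8- (4.94%) or CD3+CD8- against CD3-CD8- cells (1.23%). DESeq2 passed 0 of 10 in each of these 4 comparisons, limma voom passed 1 in treated CD3+CD8+ against CD3+CD8- cells and 0 in the others, and at an unadjusted p under 0.05 there was 1 factor in each of the first 2 and none in the last 2.

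Eomes separated treated CD3+CD8+ cells, at 133 to 136 CPM, from treated CD3+CD8- cells, at 28.5 to 84.3 CPM, without overlap. Prdm1, Nr4a2 and Id2 were also higher without overlap, so 4 of 10 factors were, beside 790 of 13181 genes. For Eomes the log2 difference was 1.43 (SE 0.52, edgeR adjusted p = 0.142). With the replicate number as a block, since same-numbered treated libraries deviated together, it was 1.57 (0.00294). The blocked fit called 1112 genes where the fit without the block called 785. In untreated mice the Eomes groups overlapped, at 25.9 to 69.5 and 11.8 to 62.6 CPM.

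Levels of different genes were compared by FPKM, the authors' read measure scaled by transcript length, within each library. Id2 ranked first of the 10 in 18 of 18 libraries. Tox was among the top 3 in 14, Batf in 11, Eomes in 7 and Tbx21 in 4. At the low end Nr4a3 had a median rank of 10 and Tox2 of 9, while Prdm1, Nr4a2 and Irf4 had median ranks of 7 to 7.5.

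Across the 18 libraries some of the 10 factors varied together more than others, but this division was less clear with group means removed. Pearson's r of log2 CPM was 0.92 for Tox with Prdm1, 0.87 for Tox with Nr4a2, 0.86 for Tox2 with Prdm1 and 0.85 for Tox with Tox2. With the mean of each group removed, the same pairs had 0.72, 0.74, 0.75 and 0.73. Eomes was less close within groups: Prdm1 with Eomes went from 0.67 to 0.33, and Eomes had 0.59 with each of Tox, Tox2 and Nr4a2. Over all 18 libraries Tbx21 with Batf had 0.70 and Tbx21 with Nr4a3 -0.64, and within groups 0.77 and -0.55. Other pairs rose within groups, Eomes with Tbx21 from 0.50 to 0.71 and Tox with Batf from 0.54 to 0.70. Libraries share groups, depth and composition, so these values are descriptions.

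**Figure D4:**
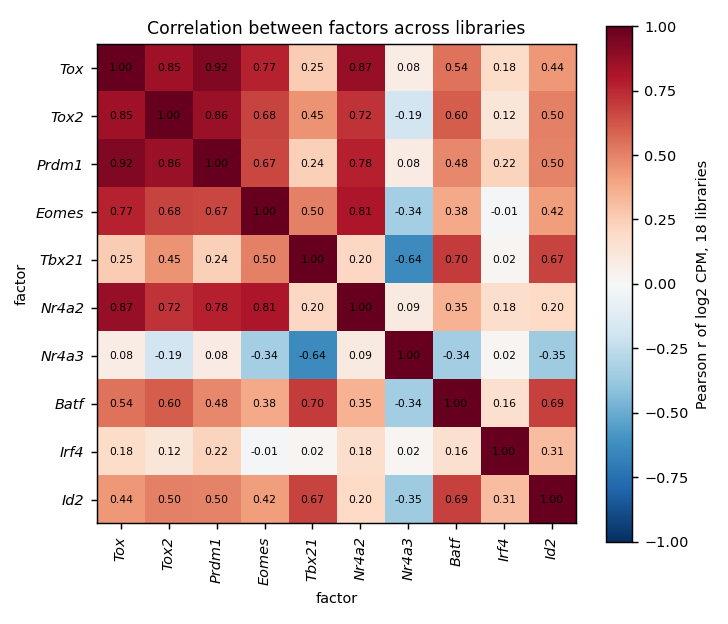
Pearson's r of log2 CPM between each pair of the 10 factors over 18 libraries, from blue (-1) to red (1). Tox, Tox2, Prdm1, Eomes and Nr4a2 form a block with r of 0.67 to 0.92, while Nr4a3 and Irf4 stand outside it.

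The genes most like each factor over the 18 libraries were sought among the 7554 named genes whose log2 CPM averaged 3 or more. For Tox they were Pdcd1, which encodes PD-1 (r = 0.94), Stk39 (0.93) and Prkch (0.92). Tox2 was most like Tigit, an inhibitory receptor (0.94), Rgs16 and Tmtc4, and Prdm1 most like Rbl2 (0.94), Ubash3b and Stk39. Eomes was most like Gzmk, a granzyme (0.94), Ccl5, a chemokine of cytotoxic cells (0.94), and Ncald (0.91). Nr4a2 had lower values, with Cyth3 at 0.83, Ildr1 at 0.82 and Pdcd1 at 0.81.

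For the other factors the closest genes were Rangap1, B4galt7 and Eftud2 (Tbx21, r = 0.90 to 0.92), Nabp1, Arap2 and Zfr (Nr4a3, 0.84 to 0.87), and Cd82, Flot2 and Smpdl3b (Batf, 0.85 to 0.86). For Irf4 they were Otud7b, Lbh and Phlpp1 (0.82 to 0.90) and for Id2 Sbds, Lin52 and Ngfrap1 (0.79 to 0.90). Over the 14 libraries left without the 4 doubted ones, Tox with Pdcd1 had 0.96 and Eomes with Ccl5 0.96, while Batf with Smpdl3b fell to 0.57 and Id2 with Ngfrap1 to 0.58.

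Genes known as targets of these factors, or as effector and exhaustion markers beside them, were 21, of which 20 were tested. In CD3-CD8- cells 11 rose and 3 fell, beside 10.2% and 15.3% of all genes, with a median log2 fold change of 1.55. Havcr2, the inhibitory receptor TIM-3, rose by 1.89 (SE 0.15, edgeR adjusted p = 0.00720), from 22.7 ± 3.13 to 85.9 ± 9.49 CPM (SD, n = 3). Il10 rose by 3.44 (SE 0.42, 0.00826), Gzma, a granzyme, by 1.77 (SE 0.26, 0.00909) and Entpd1, the ectonucleotidase CD39, by 0.997 (SE 0.18, 0.0115). With GC correction 6 rose and 1 fell, beside 195 and 412 of 13781 genes, and Entpd1 was at 0.62 (edgeR adjusted p = 0.0759).

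In CD3+CD8+ cells 20 of the 20 lay above 0, with a median of 1.60, and none passed. Havcr2 was at 2.03 (SE 0.33) and Fasl, the Fas ligand, at 1.52 (SE 0.27), both with an edgeR adjusted p of 0.273. In CD3+CD8- cells 12 of 20 lay above 0, with a median of 0.27; Gzmb was at -1.11 (SE 0.54) and Tigit at 1.01 (SE 0.53), and none passed. Without the ribosomal-rich libraries and number 6, 17 of 20 lay above 0 in CD3+CD8+ cells (median 1.14) and 13 of 20 in CD3+CD8- cells (median 0.61), and none passed.

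Regulators of naive and memory T cells formed a separate list. In CD3-CD8- cells 8 of its 11 genes fell and none rose (median -1.02), beside 15.3% and 10.2% of all genes. Tcf7, which encodes TCF-1, had a log2 difference of -1.28 (SE 0.18, edgeR adjusted p = 0.00905), Satb1 of -1.02 (SE 0.17, 0.0104) and Id3, a paralog of Id2, of -2.67 (SE 0.47, 0.0112). Klf2 fell by 1.13 (SE 0.18, edgeR adjusted p = 0.00972), but with GC correction it was at -0.01 (0.985). With that correction 5 of 11 fell, beside 412 of 13781 genes.

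In CD3+CD8+ cells 0 of 10 tested regulators of this kind lay above 0 (median -0.80) and none passed; Satb1 was at -1.06 (SE 0.34) and Foxp1 at -1.03 (SE 0.34). In CD3+CD8- cells 4 of 11 lay above 0 (median -0.06); Id3 was at -0.83 (SE 0.70) and Tcf7 at -0.40 (SE 0.37). None of the 11 passed there. With the same libraries left out, 3 of 11 lay above 0 in CD3+CD8+ cells (median -0.41) and 0 of 11 in CD3+CD8- cells (median -0.56), and none passed.

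Partners and activators of the factors (AP-1, NFAT, EGR and STAT genes and paralogs) split: in CD3-CD8- cells 1 of 21 tested rose and 8 fell (median -0.34), where 10.2% of all genes rose and 15.3% fell. Maf rose by 0.81 (SE 0.16, edgeR adjusted p = 0.0141), while Batf3, a paralog of Batf, fell by 3.11 (SE 0.55, 0.0112), Junb by 3.93 (SE 0.87, 0.0189) and Jund by 1.19 (SE 0.26, 0.0186). With GC correction 2 fell and none rose, where 412 of 13781 genes fell and 195 rose. Batf3 was then at -2.10 (edgeR adjusted p = 0.0765), Junb at -2.62 (0.0797), Jund at 0.37 (0.315) and Maf at 0.63 (0.0579).

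None of the 19 partners tested in each T cell fraction passed, with medians of -0.17 in CD3+CD8+ and 0.02 in CD3+CD8- cells. The smallest p were those of Irf8 (-1.0002, SE 0.35) and Maf (1.498, SE 0.58) in CD3+CD8+ and of Junb (-1.80, SE 0.69) and Maf (1.27, SE 0.58) in CD3+CD8- cells. With the doubted libraries left out, the medians were 0.10 and -0.13 and none passed.

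Other effector regulators numbered 9, of which 8 were tested. In CD3-CD8- cells 2 rose and none fell, where 10.2% of all genes rose and 15.3% fell. The 2 were Ikzf2, which encodes Helios (1.68, SE 0.38, edgeR adjusted p = 0.0194), and Hif1a, the hypoxia factor (0.60, SE 0.15, 0.0283). With GC correction neither passed (1.06, 0.131 and 0.03, 0.919). None passed in the T cell fractions, where 6 of 8 lay above 0 in each. Ikzf3 was at 1.10 (SE 0.28) and Bhlhe40 at 1.15 (SE 0.35) in CD3+CD8+ cells, and Ikzf2 at 1.13 (SE 0.54) and Bhlhe40 at 0.38 (SE 0.26) in CD3+CD8- cells. Without the doubted libraries 8 and 5 of 8 lay above 0, and none passed.

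Lanes 2 and 3, read from a code in the library names, held libraries of both treatments in every fraction. Within a lane, Tox, Tox2, Prdm1 and Nr4a2 were above 0 in 6 of 6 sets. The log2 ratio of mean CPM for Tox was 1.57 and 2.69 in CD3+CD8+, 3.32 and 0.54 in CD3+CD8- and 3.48 and 1.54 in CD3-CD8- cells for lanes 2 and 3. Each set holds 1 or 2 libraries of a treatment, so these ratios carry no test.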

How the data were processed

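RNA was isolated with the RNeasy Plus Micro Kit and libraries were made with TruSeq v2, per the labels' protocols. The authors deposited raw read counts per gene and, in separate tables, FPKM values per gene; HTSeq 0.13.5 (a read counter), Cufflinks 2.2.1 (which gives FPKM), DESeq2 3.20 and the trimmer Trim Galore 0.6.7 are listed, with no roles, per the submitters' processing notes. Not given in the sources used here: aligner, genome build. The count table had 40 library columns, of which 18 matched the libraries used and 22 were not used. Symbols came from the FPKM table by identifier (48242 of 48440) or a reference list (194). Of the identifiers found in GENCODE release M21 (GRCm38), 90.48% had the same start.

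Each treatment comparison was fitted on the 6 libraries of 1 fraction with edgeR 4.0.16 (filterByExpr, TMM, quasi-likelihood test, Benjamini-Hochberg adjustment over all genes tested, threshold 0.05) in R 4.3.3. Differences between treatment effects and contrasts between fractions came from a fit of all 18 libraries as 6 groups. Standard errors are the log2 fold change divided by the square root of F. DESeq2 1.42.0, limma 3.58.1, scalings, filters, lane, GC correction (a spline with 5 degrees of freedom on the GC share of the longest transcript) and left-out libraries were alternatives; the fits were tested on simulated data. FPKM values were tested as log2(FPKM + 1) for genes averaging at least 1. Ratios to CD3 used summed CPM. Limits from a count of 0 cover counting error only.

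All 10 factors are named in every comparison. For likeness the 3 genes of highest Pearson r are named, and of each related list up to 4 genes that passed, by smallest p, or else 2. The factors and the lists were chosen with earlier results of these data known. One treated CD3+CD8- library is titled P111 and its library name reads P11; it was taken as number 11. Numbers are codes in the library names, and the labels do not say what they stand for. Same-numbered libraries of different fractions deviated together, taken as r over 0.1, in all 9 treated pairs (r 0.12 to 0.69). In untreated mice 6 of 7 such pairs did (-0.05 to 0.60). Differently numbered pairs reached 0.11 in treated mice but 0.59 in untreated mice (CD3+CD8+ number 5 with CD3+CD8- number 6). Untreated CD3+CD8+ number 5 with CD3-CD8- number 1 had 0.29, above the pair of both numbers 1 at 0.20. The threshold therefore cannot show that the numbers pair untreated fractions, and in treated mice its margin was small.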

Additional observations from a re-analysis of the deposited data

How the results depend on the processing

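Of 685 values of single factors under alternatives, 601 kept direction and side of the threshold, 36 lost the call, 28 gained it and 20 changed sign; Tox, Tox2, Prdm1 and Nr4a2 stayed above 0 in all 3 treatment comparisons under every alternative run. For treatment in CD3+CD8+ cells, 0 of 10 factors passed, but 4 with no filter on low counts (380 genes), 4 with DESeq2 (98 genes), 4 with limma voom (194 genes) and 1 in the fit of all 18 libraries (15 genes); limma on log2(FPKM + 1) passed 276 genes and 0 factors. With 1 library left out it was 0 to 3, with 3 (and 180 genes) without untreated number 5, where all untreated libraries left were ribosomal-rich. In CD3+CD8- cells 0 passed, and 1 with no filter (195 genes). In CD3-CD8- cells 4 passed (3522 genes), but 2 with library totals alone (2043 genes), 1 in the fit of all 18 (76 genes), 0 with FPKM (253 genes), 2 with GC correction (607 genes) and 0 without the deepest library of each group, untreated number 5 and treated number 19, a setting chosen after seeing the data, as were those without number 6 and those of the related lists. With 1 library left out it was 1 to 5 factors and 239 to 3183 genes: 1 factor without untreated number 1 or treated number 2 or 19, and 5 factors but 239 genes without untreated number 5. Between fractions, untreated CD3+CD8+ against CD3-CD8- gave 1 factor, 2 with DESeq2, 2 with limma voom, 0 without the ribosomal-rich libraries and 0 to 1 with 1 library left out. Untreated CD3+CD8- against CD3-CD8- gave 1, and 0 to 1 with 1 left out. Treated CD3+CD8+ against CD3+CD8- gave 0, but 2 with no filter, 1 with limma voom, 1 with the replicate block and 0 to 1 with 1 left out.

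Signs changed as follows, in log2 fold change; the cause was not tested. In CD3+CD8+ cells, Nr4a3 was at 1.23 with library totals alone and 0.82 with FPKM, and without the ribosomal-rich libraries at 0.39, with Tbx21 at -0.14 and Batf at -0.24. In CD3+CD8- cells, library totals alone gave -0.041 for Nr4a3 and -0.33 for Batf, FPKM -0.13 and -0.57, GC correction 0.10 for Tbx21, and the fit without the ribosomal-rich library and number 6 gave 0.059 for Tbx21 and 0.20 for Id2. With 1 library left out there, Eomes ranged from -0.16 to 1.23, Batf from -0.26 to 0.54 and Id2 from -0.34 to 0.019. In CD3-CD8- cells GC correction gave 0.75 for Tbx21 and -0.055 for Id2, and Tbx21 ranged from -0.38 to 0.014 with 1 library left out. Library totals alone moved the median log2 fold change of all genes to 1.17, -0.53 and -0.17 in CD3+CD8+, CD3+CD8- and CD3-CD8- cells, where TMM gave -0.03, -0.02 and -0.06.

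No paired analysis was possible for treatment because treated and untreated libraries share no number. Between fractions the replicate block moved the genes that passed from 208 to 435, 602 to 1538 and 417 to 1362 in untreated mice (CD3+CD8+ against CD3+CD8-, CD3+CD8+ against CD3-CD8- and CD3+CD8- against CD3-CD8-), and from 785 to 1112, 651 to 1011 and 162 to 641 in treated mice; Eomes above was its only change to a call of a factor. In untreated mice shared deviation cannot show whether a number marks a pair, since some differently numbered libraries also deviated together. For CD3+CD8- libraries 1 same-numbered pair did not deviate together, and each comparison has fewer than 3 pairs. Depth limits Tox2 most: it had no count in 1 library. No CD3-CD8- library was rich in ribosomal counts, so that setting was not run there.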

Other observations

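In CD3-CD8- cells, 3 paralogs of the factors, chosen after their values were seen, had these levels. Nr4a1, the third NR4A receptor, fell from 41.2 ± 17.3 to 13.3 ± 5.09 CPM (SD, n = 3; log2 -1.65, SE 0.39, edgeR adjusted p = 0.0231), where Nr4a2 rose and Nr4a3 was at 0.22. With GC correction Nr4a1 was at -0.93 (0.170), and in the T cell fractions it was at -0.74 and -0.95 without passing. Irf8 went from 183 ± 13.5 to 103 ± 37.3 CPM (-0.87, SE 0.26, edgeR adjusted p = 0.0428; with GC correction -0.74, 0.109). Tox4, an HMG-box relative of Tox, was at 72.2 ± 4.13 and 81.9 ± 2.38 CPM (0.15, SE 0.13, edgeR adjusted p = 0.406). The difference between paralogs was not tested.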
